A study of Homo sapiens with 6 samples.

Results

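Transfer RNA (tRNA) entries of the deposited repeat tables were followed across 3 culture conditions of H9 cells, a long-established line of human embryonic stem cells. An entry was taken as a member when its name starts with tRNA- in the raw count table and it is also listed in the deposited CPM table (each count scaled to the library's summed counts of the listed entries). This gave 60 entries of 7383 in the CPM table, for 21 amino acids including selenocysteine. The count table holds 65 such names among 15600. The other 5 (His-CAY, Glu-GAG, Glu-GAG_v, Gln-CAA_v and Arg-CGY) had 0 counts in all libraries, apart from Glu-GAG with 3 counts in RSeT+DT replicate 1.

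Each group had 2 libraries of wild-type H9 cells. Primed cells were grown in mTeSR, a medium for primed cells, which resemble the epiblast after implantation, and RSeT cells in a commercial medium used for a naive-like state. RSeT+DT cells were RSeT cells that also received 10 nM DZNep, an inhibitor of S-adenosylhomocysteine hydrolase that lowers the Polycomb mark H3K27me3, and 5 nM TSA, a histone deacetylase inhibitor, with collection after 48 hours. DZNep and TSA were given together, so their parts cannot be told apart, and all groups come from a single cell line.

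A tRNA carries 1 amino acid to the ribosome and reads the matching codon of the mRNA through its anticodon. Nuclear tRNA genes are transcribed by RNA polymerase III from promoter boxes inside the gene, as many near-identical copies, whereas mitochondrial tRNAs are cut out of the long transcripts of the mitochondrial genome. Mature tRNAs are short, tightly folded and heavily modified, which hampers reverse transcription in ordinary RNA-seq libraries.

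The letters after the amino acid in an entry's name match its codons in the genetic code, with Y standing for C or T. An entry sums reads over all its genomic copies, so no single locus belongs to a value. Of the 60 names, 21 end the codon in A, 15 in G, 15 in Y and 9 in another way, and 11 carry an added _ mark. The meaning of the _ mark, of (m) and of (e) is not given in the sources used here. Nuclear tRNA genes whose anticodon reads the codon of some of the entries that changed most are shown with their GRCh38 coordinates. Their sequences come from GENCODE transcripts or RefSeq promoter windows that span them. None could be printed in this way for Met-i, Ala-GCA or Leu-TTA, which were also among the largest changes. Also shown are the mitochondrial tRNA genes for the codons of the (m) entries, which held most tRNA counts. Capitals mark the anticodon, and T stands for U.

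TRA-AGC2-2, for Ala-GCY, at chr6:28863685-28863756, minus strand, near the start of the lncRNA LINC01623: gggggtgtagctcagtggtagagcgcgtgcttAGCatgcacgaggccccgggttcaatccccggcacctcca

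TRE-TTC4-1, for Glu-GAA, at chr1:16535279-16535350, minus strand, within the lncRNA LINC01783: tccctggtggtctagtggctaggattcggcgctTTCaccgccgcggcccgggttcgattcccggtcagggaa

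TRG-GCC2-4, for Gly-GGY, at chr16:70779039-70779109, minus strand, within the transcript AC027281.2: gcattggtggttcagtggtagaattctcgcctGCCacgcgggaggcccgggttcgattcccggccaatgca

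MT-TL1, for Leu-TTA(m), at chrM:3230-3304, plus strand: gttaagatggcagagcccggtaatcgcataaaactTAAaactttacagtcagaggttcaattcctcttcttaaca

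MT-TS1, for Ser-TCA(m), at chrM:7446-7514, minus strand: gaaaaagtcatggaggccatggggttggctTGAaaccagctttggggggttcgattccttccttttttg

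The nuclear genes are 72, 72 and 71 bases long, in the order printed. MT-TL1 lies between MT-RNR2, the large mitochondrial ribosomal RNA, and MT-ND1 on the same strand. MT-TS1 directly adjoins the end of MT-CO1 at position 7445, on the opposite strand. Because the strand setting of the counting is not given, reads of an entry and of an RNA on the opposite strand cannot be told apart. Whether the (m) counts come from these 2 of the 22 mitochondrial tRNA genes was not tested.

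Repeat counts per library ranged from 11520770 to 38312112, with the most in RSeT replicate 1. Repeats that mark pluripotent and naive-like cells were checked against the labels. HERVH-int stood at 23829 and 26519 CPM in primed libraries, 73442 and 75615 in RSeT libraries and 114855 and 118627 in RSeT+DT libraries. HERVK-int stood at 336 and 344 CPM in primed cells and between 16530 and 20070 CPM in the other 4 libraries. Of the trophoblast markers, LTR17 was also higher in RSeT (452 and 455 CPM) and RSeT+DT (546 and 577) than in primed cells (166 and 171), while MER21A fell in RSeT+DT cells (log2 fold change -0.28 against RSeT). All 3 repeats listed for an 8-cell-like state were higher in RSeT against primed cells (HERVL-int 0.36, MLT2A1 0.19 and MLT2A2 0.46). MLT2A1 overlapped between these groups, with 243 and 255 CPM in primed and 252 and 267 in RSeT libraries. In RSeT+DT against RSeT cells HERVL-int (-0.32) and MLT2A1 (-0.24) were lower and MLT2A2 did not pass (-0.0058). Over all tested entries other than simple repeats, 51.1% were higher in the first comparison (median of these entries 0.17). In the second, 52.6% were lower (median -0.22). The part of this state or of other cell types in the tRNA values was not tested. In bulk RNA, more cells with an RNA and more of it per cell cannot be told apart.

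tRNA entries took 0.320% and 0.316% of repeat counts in primed libraries, 0.366% and 0.359% in RSeT libraries and 0.371% and 0.375% in RSeT+DT libraries. These are 43009 to 140148 counts per library. The 3 ranges did not overlap, but the sum hides opposite movements of its parts. The 2 (m) entries held 69.1% and 73.0% of tRNA counts in primed libraries, 70.1% and 71.1% in RSeT libraries and 80.5% and 81.2% in RSeT+DT libraries. Their summed level went from 2256 ± 65.4 CPM in primed cells to 2559 ± 8.04 in RSeT cells and 3015 ± 44.5 in RSeT+DT cells (mean ± SD, n = 2 each). The other 58 entries summed to 921 ± 95.0 CPM in primed cells, 1065 ± 40.5 in RSeT cells and 716 ± 12.1 in RSeT+DT cells. Thus the sum of the other entries was highest in RSeT and lowest in RSeT+DT libraries, while the (m) sum was highest in RSeT+DT libraries. The sums weigh entries by abundance and do not describe a typical entry. In the test below, with TMM scaling factors, 54 of the other entries were tested. For RSeT+DT against primed cells their median log2 fold change was 0.32, with 39 positive, 15 called higher and 6 lower. Of all repeat entries tested, 25.1% were higher and 20.6% lower. These values depend on the scaling. With library totals, the scale of the CPM sums, the median of all 56 tested tRNA entries was 0.05, with 30 positive, 10 higher and 10 lower. As sums over chosen entries, the summed levels are given as a description with no test.

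**Figure D1:**
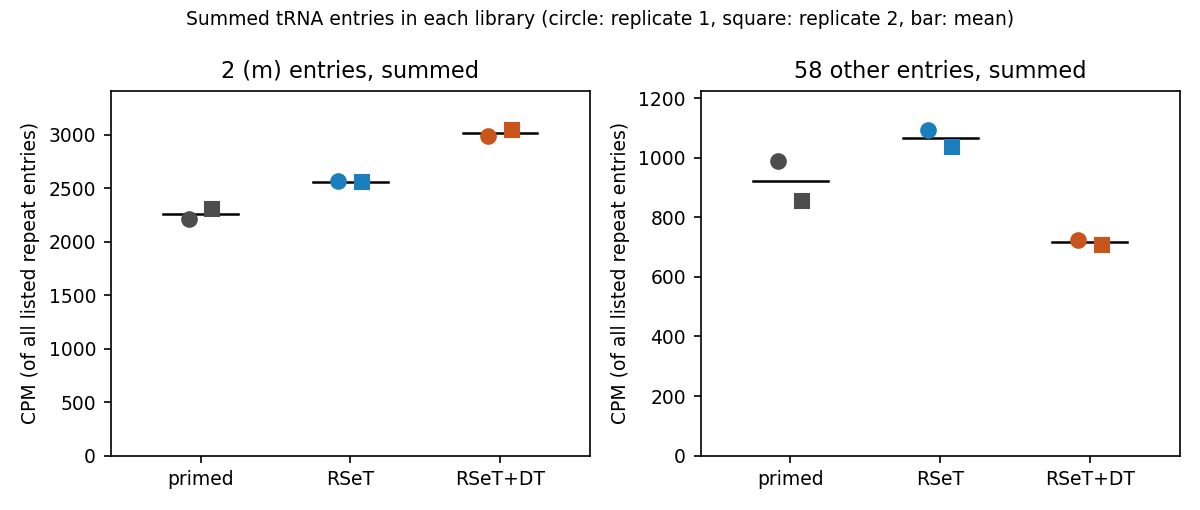
Summed CPM of the 2 (m) entries (left) and of the 58 other tRNA entries (right) in each library, with circles for replicate 1, squares for replicate 2 and a bar at the mean of each group. The (m) sum is highest in RSeT+DT libraries (2983 and 3046 CPM), where the sum of the other entries is lowest (724 and 707 CPM).

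These shares depend on what else was counted. 7SLRNA, which is made by RNA polymerase III for the signal recognition particle, took 20.5% and 22.1% of counts in primed libraries, 14.1% and 14.7% in RSeT libraries and 19.2% and 21.3% in RSeT+DT libraries. Set against the other RNA polymerase III entries in place of the total, the summed tRNA counts gave log2 ratios of 0.75 (RSeT against primed) and -0.45 (RSeT+DT against RSeT). The share of all counts gave 0.19 and 0.04. The (m) entries held 69.1% to 81.2% of these tRNA counts, and 7SLRNA had the most counts of the entries set against them. That ratio was not computed without the (m) entries. As a share of all counts, the tRNA sum without the (m) entries gave 0.21 and -0.57. The part of 7SLRNA in the tRNA values was not tested.

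Entries were tested with edgeR's quasi-likelihood test over all 4665 repeat entries that passed its filter on low counts, with Benjamini-Hochberg adjusted p under 0.05 as the threshold. Of the 60 tRNA entries, 56 passed the filter. The others had few counts in all 6 libraries together: 50 for Asn-AAT, 32 for SeC(e)-TGA, 19 for Ser-TCA and 17 for Tyr-TAT. SeC(e)-TGA, named for the tRNA that inserts selenocysteine at certain stop codons, had 3 and 3 counts in primed libraries, 11 and 4 in RSeT libraries and 6 and 5 in RSeT+DT libraries. Levels in CPM are not divided by length, so levels of different entries compare only as shares of counts. Whether the replicates were separate cultures is not stated in the labels, and the p-values therefore cover only how far these libraries scatter, possibly for technical reasons.

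**Figure D2:**
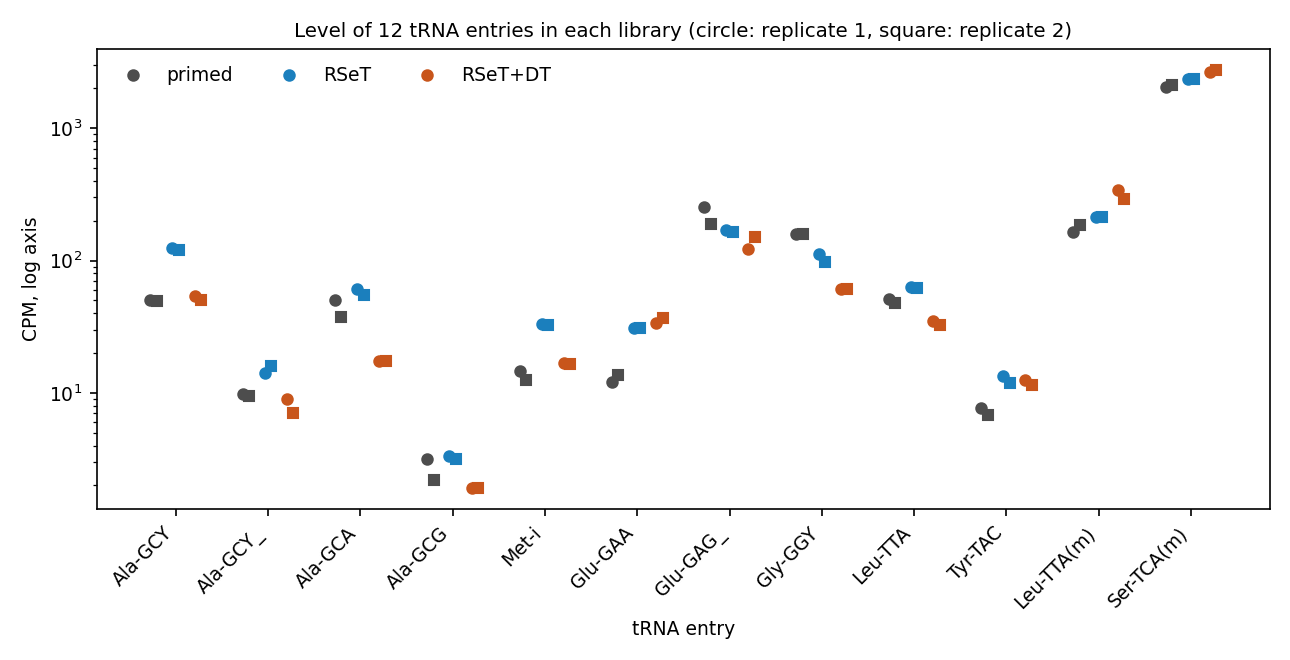
Level of 12 tRNA entries in each library, as CPM on a log axis, with circles for replicate 1, squares for replicate 2 and a colour for each group. Ala-GCY and Met-i are highest in both RSeT libraries, Glu-GAA is lowest in both primed libraries, and Gly-GGY is highest in primed and lowest in RSeT+DT libraries.

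RSeT against primed cells compares the naive-like with the primed culture. Most tRNA entries rose: 38 of 56 were higher and 3 lower. Among all entries tested 22.8% were higher and 23.8% lower, and among the 1232 that are not simple repeats 51.1% were higher and 8.69% lower. The share of tRNA entries that rose was thus 67.9%. The median log2 fold change was 0.58 over the tRNA entries, -0.03 over all entries and 0.17 over those other than simple repeats. Of the 56 entries, 51 had a positive fold change. With library totals in place of TMM factors 35 were higher and 3 lower (14.6% and 32.9% of all entries), and with factors from interspersed repeats only 34 and 3 (13.7% and 36.1%). The median of all entries was then -0.16 and -0.19, and that of the tRNA entries 0.45 and 0.42.

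Ala-GCY, for alanine, had 50.5 and 49.5 CPM in primed and 125 and 121 CPM in RSeT libraries. This was the largest rise among entries with a mean count of at least 50 (log2 fold change 1.43, SE 0.058, adjusted p = 1.01e-16 in edgeR). Met-i, named for the initiator tRNA that starts every protein, had 14.7 and 12.5 CPM in primed and 33.4 and 32.5 in RSeT libraries (1.40, SE 0.10). The entry Met, without the i, rose less, from 40.6 and 36.3 to 49.3 and 46.5 CPM (0.45, SE 0.073), and Met_ had a fold change near 0 (0.0046, not passing).

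Glu-GAA, for glutamate, rose from 12.2 and 13.6 to 30.7 and 31.2 CPM (1.40, SE 0.094). Its partner for the other glutamate codon, Glu-GAG_, had 256 and 188 CPM in primed and 171 and 163 in RSeT libraries. It was called lower (-0.29, SE 0.086), but the primed libraries differed much from each other and the call was lost without primed replicate 1 (-0.0057, adjusted p = 0.957 in edgeR), without RSeT replicate 1 (-0.32) or 2 (-0.23), and in DESeq2 (-0.26). Entries for the same amino acid therefore did not all move alike.

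Val-GTY, for valine, rose from 1.60 and 1.83 to 3.68 and 4.01 CPM (1.29, SE 0.27). Phe-TTY, for phenylalanine, had 3.21 and 1.98 CPM in primed and 5.17 and 3.90 in RSeT libraries (0.95, SE 0.23), and this call was lost without RSeT replicate 1. Tyr-TAC, for tyrosine, rose from 7.66 and 6.75 to 13.3 and 11.8 CPM (0.94, SE 0.14). In these 3 entries both RSeT libraries lay above both primed ones, which the rule for naming the largest rises required. Phe-TTY rests on 27 to 198 counts a library.

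The (m) entries rose too, Leu-TTA(m) from 164 and 187 to 214 and 213 CPM (0.42, SE 0.055; 0.26 with interspersed scaling) and Ser-TCA(m) from 2046 and 2116 to 2350 and 2340 CPM (0.31, SE 0.038). The latter value was 0.17 with library totals and 0.14 with interspersed scaling, and passed under both. Leu-TTA without the (m) rose from 51.5 and 47.8 to 63.2 and 61.7 CPM (0.46, SE 0.066; 0.30 with interspersed scaling).

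Gly-GGY, for glycine, was the steadiest fall, from 158 and 158 CPM in primed to 113 and 98.1 in RSeT libraries (-0.44, SE 0.054, adjusted p = 1.88e-07 in edgeR). It passed under each of the 17 alternative settings. His-CAY_, for histidine, had 20.7 and 15.1 CPM in primed and 12.8 and 11.2 in RSeT libraries (-0.44, SE 0.14). Its call was lost without primed replicate 1 (-0.15) or RSeT replicate 2 (-0.35) and in DESeq2 (-0.42). These 3 entries are the only ones called lower, and 1 was left without primed replicate 1 or without RSeT replicate 2.

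By amino acid, arginine had 5 of 6 entries higher, with Arg-AGG going from 6.41 and 7.19 to 11.1 and 12.3 CPM (0.91, SE 0.15). Arg-CGA_ had the largest fitted value of all (1.97, SE 0.64), but stood at 0.06 and 0.44 CPM in primed libraries and lost its call without primed replicate 1 (1.10), without RSeT replicate 2 (1.56) and in DESeq2, and went to 3.81 without primed replicate 2. Alanine had 3 of 4 entries higher, glutamine and valine 3 of 3, leucine 4 of 6 beside its (m) entry, and isoleucine, methionine and proline 2 of 3 each. Serine had 2 of 4 and threonine 2 of 5 higher. Not all of these calls were stable. All 3 alanine, 4 leucine and 2 methionine calls passed in every alternative that gave them a value, but only 2 of 5 for arginine, 1 of 3 for glutamine and for valine, 1 of 2 for isoleucine, proline and serine, and 0 of 2 for threonine. Gln-CAA (0.33), whose groups overlap, did not pass with library totals (0.20) or interspersed scaling (0.17), without RSeT replicate 1 (0.24) or without primed replicate 2 (0.15). Gln-CAG (0.46) did not pass with interspersed scaling (0.30) or without RSeT replicate 1 (0.28), and Ile-ATT (0.30) with either scaling or without primed replicate 2 (0.20). Val-GTG (0.63) was lost without primed replicate 2 (0.40), and Val-GTA (1.02) without that library (0.72) and without either RSeT library (1.03 and 1.03). Ser-TCY (0.47) was lost in 10 of 17 alternatives. Tryptophan's only entry, Trp-TGG, did not pass (0.85). By the third codon letter, 15 of 19 tested entries ending in A rose and none fell, against 7 and 1 of 15 ending in G, and 11 and 2 of 15 ending in Y. Of the 7 tested entries ending in another way, 5 rose and none fell.

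**Figure D3:**
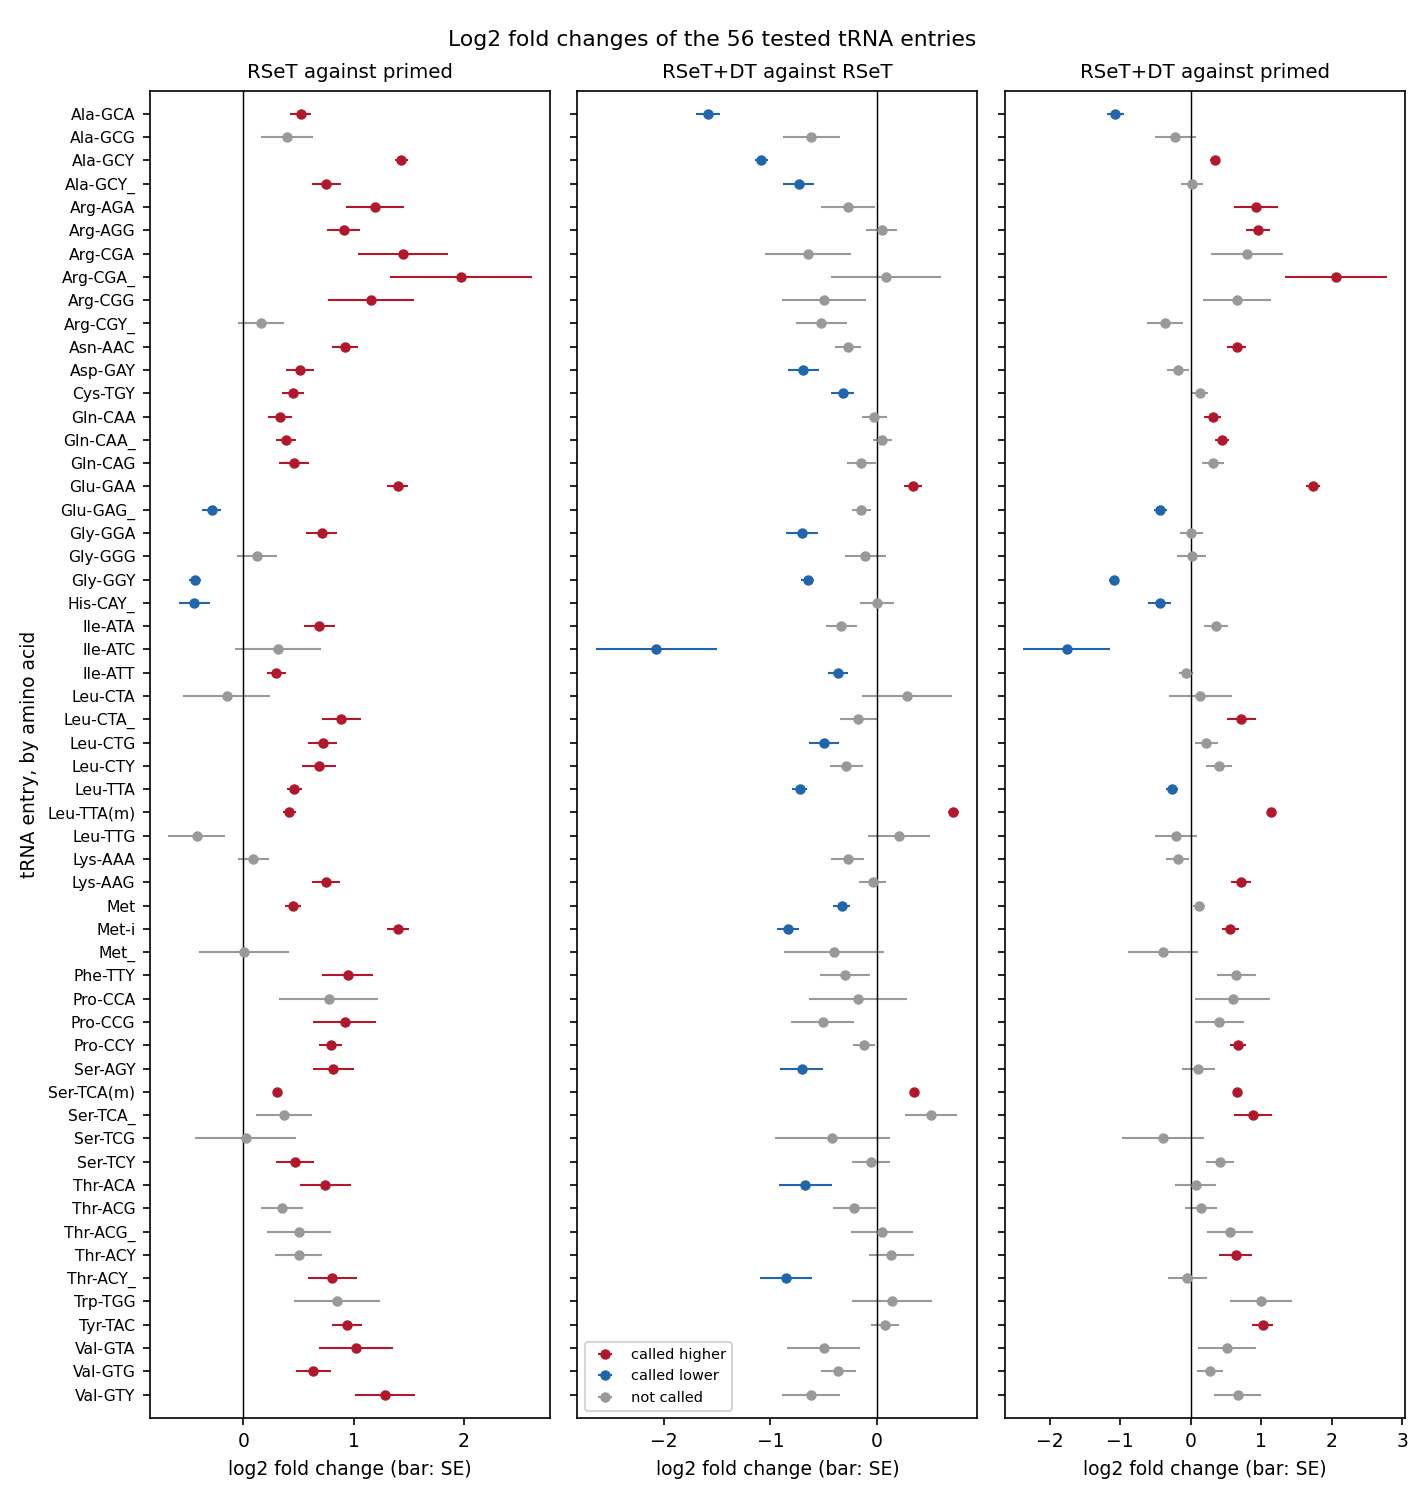
Log2 fold change of the 56 tested tRNA entries in each comparison (x axis, with bars for the SE), ordered by amino acid, with entries called higher in red, lower in blue and not called in grey at an adjusted p of 0.05. The left panel has 38 red points, the middle panel 16 blue and 3 red, and the right panel 17 red and 6 blue.

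RSeT+DT against RSeT cells shows the values after DZNep and TSA were added. More tRNA entries fell than rose, and the rises included both (m) entries. Of 56 entries 3 were higher and 16 lower, where 25% of all entries tested were higher and 17.4% lower. Among entries other than simple repeats 6.41% were higher and 52.6% lower, so the 28.6% of tRNA entries that fell lies between both backgrounds. The median was -0.29 over tRNA entries, 0.03 over all entries and -0.22 over those other than simple repeats.

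The split depended on scaling. With library totals in place of TMM factors, 2 entries were higher and 26 lower, beside 16.9% and 24.8% of all entries. With factors from interspersed repeats only, 5 were higher and 10 lower, beside 37.1% and 6.02%. These scalings moved the median of all entries to -0.13 and 0.25, and the tRNA median stayed negative at -0.44 and -0.07. Entries named as falling below passed under both, except where said.

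Among entries with a mean count of at least 50, the alanine entries Ala-GCA and Ala-GCY fell most. Ala-GCA had 61.0 and 54.8 CPM in RSeT and 17.5 and 17.4 in RSeT+DT libraries (-1.59, SE 0.11, adjusted p = 4.80e-11 in edgeR). Ala-GCY went from 125 and 121 to 54.2 and 50.001 CPM (-1.09, SE 0.060), and Ala-GCY_ from 14.2 and 16.1 to 9.03 and 7.03 CPM (-0.73, SE 0.14). All 3 passed under each of the 17 alternatives. The fourth, Ala-GCG, had 3.34 and 3.14 CPM in RSeT and 1.91 and 1.91 in RSeT+DT libraries, and did not pass (-0.62, SE 0.27, adjusted p = 0.0668 in edgeR). The alanine entries together summed to 199 ± 5.96 CPM in RSeT and 79.5 ± 4.51 in RSeT+DT cells (n = 2 each).

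Met-i fell from 33.4 and 32.5 to 16.8 and 16.4 CPM (-0.84, SE 0.10) and Met from 49.3 and 46.5 to 33.9 and 35.0 CPM (-0.33, SE 0.078), the latter not with interspersed scaling (-0.11). Leu-TTA, for leucine, fell from 63.2 and 61.7 to 35.1 and 32.7 CPM (-0.73, SE 0.073). Gly-GGY fell from 113 and 98.1 to 60.7 and 61.0 CPM (-0.65, SE 0.061) and Gly-GGA from 38.3 and 32.3 to 21.7 and 17.5 CPM (-0.70, SE 0.15), the latter not in DESeq2. In each of these entries both RSeT+DT libraries lay below both RSeT libraries, which the rule for naming the largest falls required of Met-i and Leu-TTA.

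Thr-ACY_, for threonine, had 5.64 and 5.00 CPM in RSeT and 3.22 and 2.08 in RSeT+DT libraries (-0.85, SE 0.24). Its call was lost without RSeT+DT replicate 2 (-0.56) or RSeT replicate 1 (-0.73). Asp-GAY, for aspartate, fell from 15.8 and 13.0 to 8.80 and 7.47 CPM (-0.69, SE 0.14). Ile-ATC had 1.67 and 1.86 CPM in RSeT and 0.00 and 0.78 in RSeT+DT libraries, and its call (-2.08, SE 0.57) was lost without RSeT+DT replicate 1 (-1.02). The other falls were Ser-AGY (-0.71), Thr-ACA (-0.67), Leu-CTG (-0.50), Ile-ATT (-0.37) and Cys-TGY (-0.32), and none of these 5 passed with interspersed scaling. Leaving out RSeT+DT replicate 2 also ended the calls of Ile-ATT (-0.20), Cys-TGY (-0.09) and Thr-ACA (-0.62). Leaving out RSeT+DT replicate 1 ended those of Leu-CTG (-0.33) and Thr-ACA (-0.71), leaving out RSeT replicate 1 those of Leu-CTG (-0.29), Cys-TGY (-0.29) and Thr-ACA (-0.63), and leaving out RSeT replicate 2 those of Cys-TGY (-0.34) and Thr-ACA (-0.70).

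The rises were Leu-TTA(m), Ser-TCA(m) and Glu-GAA. Leu-TTA(m) had 214 and 213 CPM in RSeT and 340 and 293 in RSeT+DT libraries (0.72, SE 0.054), while Leu-TTA without the (m) fell by 0.73 on the same log2 scale. Ser-TCA(m), the tRNA entry with the most counts, rose from 2350 and 2340 to 2643 and 2753 CPM (0.36, SE 0.038; 0.20 with library totals and 0.58 with interspersed scaling). Both passed under each of the 17 alternatives. Glu-GAA had 30.7 and 31.2 CPM in RSeT and 33.8 and 36.7 in RSeT+DT libraries (0.34, SE 0.083), and did not pass with library totals (0.19) or in limma on the CPM (0.18 and 0.19 with pseudocounts of 1 and 0.1).

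Of the 6 arginine entries none passed, where 3 of 4 alanine entries did. Arginine fold changes ran from -0.65 to 0.09, with 2 positive and a median of -0.38, beside -0.91 for alanine. Arg-AGG stood at 11.1 and 12.3 CPM in RSeT and 12.2 and 9.20 in RSeT+DT libraries. Arg-AGA, Arg-CGA, Arg-CGA_ and Arg-CGG had mean counts of only 12 to 47.2, so an entry that did not pass may still have changed. Glutamine had none of 3 passing (-0.14 to 0.05). Valine had none of 3 passing either, though all values were negative (-0.62 to -0.36). None of the 9 tested entries for the basic amino acids arginine, lysine and histidine passed (median -0.27). For nonpolar amino acids 1 of 28, the entry Leu-TTA(m), was higher and 11 lower (median -0.38). For polar uncharged amino acids 1 of 16, the entry Ser-TCA(m), was higher and 4 lower (median -0.097). The acidic ones had 1 higher and 1 lower of 3 (median -0.14). By the third codon letter, 7 of 15 tested entries ending in Y fell, 1 of 15 ending in G, 4 of 19 ending in A and 4 of 7 ending in another way. The last class includes names ending in C or T, which Y also stands for. All 3 rises were entries ending in A, 2 of them the (m) entries. The difference between such classes was not tested.

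**Figure D4:**
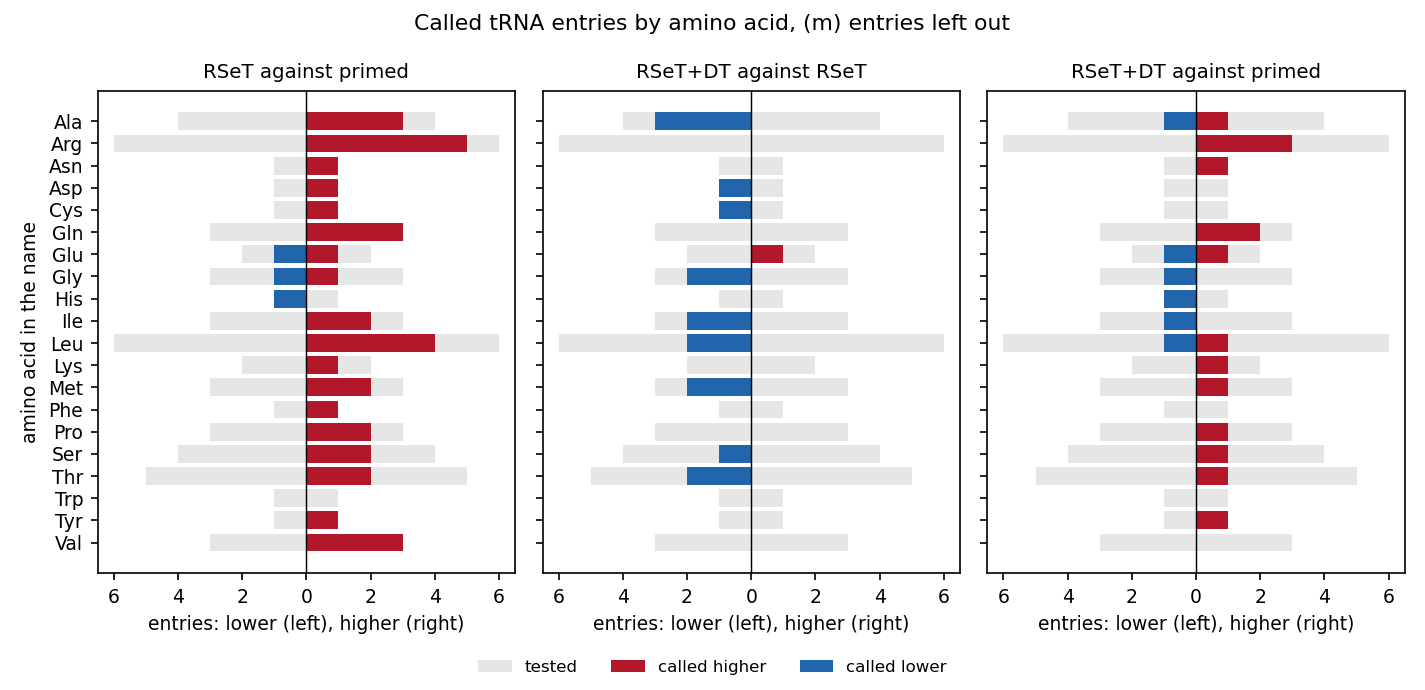
Number of tRNA entries called higher (red, to the right) and lower (blue, to the left) for each amino acid in the 3 comparisons, over grey bars for the number tested, without the (m) entries. Arginine has 5 of 6 entries higher in RSeT against primed cells and none called in RSeT+DT against RSeT, where alanine has 3 of 4 lower.

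RSeT+DT against primed cells sets the treated naive-like culture beside the primed one. It shares libraries with the other comparisons, so its values are given side by side with theirs. Of 56 tRNA entries 17 were higher and 6 lower, where 25.1% of all entries tested were higher and 20.6% lower. Among entries other than simple repeats these shares were 25.1% and 32.9%. The median was 0.33 over tRNA entries, -0.0089 over all entries and -0.06 over those other than simple repeats. With library totals 10 were higher and 10 lower, beside 13% and 38.3% of all entries, and with interspersed scaling 20 and 5, beside 28.1% and 17.5%. The median of all entries was then -0.29 and 0.05, and that of the tRNA entries stayed positive at 0.05 and 0.39.

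Glu-GAA was the largest rise among entries with a mean count of at least 50, at 12.2 and 13.6 CPM in primed and 33.8 and 36.7 in RSeT+DT libraries (1.74, SE 0.10, adjusted p = 1.40e-13 in edgeR). Leu-TTA(m) rose from 164 and 187 to 340 and 293 CPM (1.14, SE 0.056), and Ser-TCA(m) from 2046 and 2116 to 2643 and 2753 CPM (0.66, SE 0.038; 0.37 with library totals). Tyr-TAC rose from 7.66 and 6.75 to 12.6 and 11.5 CPM (1.02, SE 0.15), and Arg-AGG from 6.41 and 7.19 to 12.2 and 9.20 CPM (0.96, SE 0.17). These 5 rises passed under each of the 17 alternatives. Their groups did not overlap, which the rule for naming the largest rises required of all but Ser-TCA(m).

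Ser-TCA_ had 2.67 and 2.13 CPM in primed and 3.52 and 3.82 in RSeT+DT libraries (0.88, SE 0.27), a call lost with library totals, in DESeq2 and without primed replicate 2. Leu-CTA_ rose from 3.68 and 3.67 to 4.75 and 5.21 CPM (0.72, SE 0.20), which did not pass with library totals or in limma. Met-i had 14.7 and 12.5 CPM in primed and 16.8 and 16.4 in RSeT+DT libraries (0.57, SE 0.12; 0.28 with library totals). In CPM, the Met-i level after DZNep and TSA thus lay closer to the primed level than to the 33.4 and 32.5 CPM of RSeT libraries. How close depended on the setting. Over the 17 alternatives its fold change ran from 0.28 to 0.73 against primed cells and from -0.99 to -0.62 against RSeT cells.

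Gly-GGY fell from 158 and 158 to 60.7 and 61.0 CPM (-1.09, SE 0.061, adjusted p = 9.97e-14 in edgeR). Ala-GCA fell from 50.7 and 37.6 to 17.5 and 17.4 CPM (-1.07, SE 0.12). Both passed under each of the 17 alternatives. Ala-GCY, the other abundant alanine entry, had 50.5 and 49.5 CPM in primed and 54.2 and 50.001 in RSeT+DT libraries. These ranges overlap, and its fitted value of 0.35 (SE 0.067) passed in edgeR but not with library totals (0.06) or in limma (0.06 with either pseudocount).

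The other falls were less steady, and 2 entries were called lower in all without primed replicate 1. Leu-TTA had 51.5 and 47.8 CPM in primed and 35.1 and 32.7 in RSeT+DT libraries (-0.26, SE 0.078; -0.55 with library totals, the scale of the printed CPM), a call lost without RSeT+DT replicate 2 (-0.16) or primed replicate 1 (-0.17). Glu-GAG_ had 256 and 188 against 123 and 150 CPM (-0.43, SE 0.092; -0.71 with library totals), lost without primed replicate 1 (-0.14) and in DESeq2 (-0.44). His-CAY_ had 20.7 and 15.1 against 12.5 and 9.29 CPM (-0.44, SE 0.16; -0.72 with library totals), lost under 7 settings, among them interspersed scaling, DESeq2 and leaving out primed replicate 1. Ile-ATC (-1.76, SE 0.62) was lost without RSeT+DT replicate 1, among others.

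The alanine entries thus differed among themselves across the 3 groups. Ala-GCY was highest in RSeT libraries and, in CPM, about level in the other groups, whereas Ala-GCA was lowest in RSeT+DT libraries. With TMM factors Ala-GCY was called higher in RSeT+DT against primed cells (0.35), a call kept in 14 of 17 alternatives. Ala-GCY_ had 9.86 and 9.54 CPM in primed libraries and Ala-GCG 3.15 and 2.20, and neither passed in RSeT+DT against primed cells (0.02 and -0.22). In RSeT against primed cells Ala-GCA rose by 0.52 (SE 0.094; 0.79 without primed replicate 1 and 0.31 without primed replicate 2), Ala-GCY_ by 0.75 (SE 0.13), and Ala-GCG did not pass (0.40, adjusted p = 0.175 in edgeR).

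Nuclear tRNA genes lie in clusters, the largest on chromosome 6, and some lie inside other genes, where reads of the host transcript may add to an entry. RefSeq (GRCh38.p14) names 423 of them, 149 on chromosome 6 and 114 within another gene. Of the 33 alanine genes, 26 lie on chromosome 6. Ala-GCY matches 20 genes by its codon, 17 of them on chromosome 6 and 11 within another gene, Ala-GCA 8 (5 and 1) and Met-i 8 (6 and 2). Glu-GAA matches 7 genes, none on chromosome 6 and 4 within another gene, and Gly-GGY 13 (1 and 6). Whether host transcripts, the clusters or the gene copies bear on the changes was not tested.

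The level of an entry went only loosely with the number of such genes. Over 56 entries with at least 1 gene and no bracketed letter, Pearson's r was 0.244 and Spearman's rho 0.568 between the number of genes and the mean CPM over 6 libraries. This is a description over entries that share libraries, differ in length and partly share genes (Ala-GCY and Ala-GCY_ both match the same 20). Cys-TGY matched the most genes, 29, at a mean of 26.7 CPM, while Glu-GAG_ with 8 genes stood at 175 and Gly-GGY with 13 at 108 CPM. The mean level of members ranged from 0.138 CPM for Tyr-TAT to 2374 CPM for Ser-TCA(m).

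**Figure D5:**
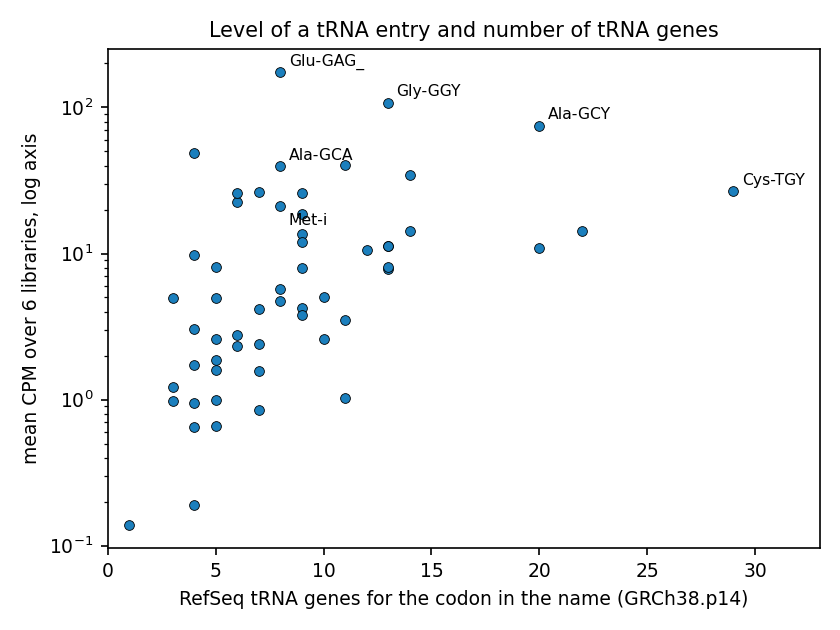
Mean CPM over the 6 libraries (log axis) of the 56 tRNA entries with at least 1 matching gene and no bracketed letter, against the number of RefSeq tRNA genes for the codon in the name. Cys-TGY matches 29 genes at 26.7 CPM, and Glu-GAG_ lies highest, at 175 CPM with 8 genes.

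Other products of RNA polymerase III did not all move with the tRNA entries. Of 9 such entries (5S, 7SLRNA, 7SK, U6, BC200, HY1, HY3, HY4 and HY5) 2 were higher and 3 lower in RSeT against primed cells, with a median of -0.04. In RSeT+DT against RSeT cells 3 were higher and 2 lower (median -0.0022), and against primed cells 3 and 1 (median 0.13). Over all tested entries the shares higher and lower were 22.8% and 23.8%, 25% and 17.4%, and 25.1% and 20.6%, in that order. Over entries other than simple repeats they were 51.1% and 8.69%, 6.41% and 52.6%, and 25.1% and 32.9%. Whether these 9 entries differ from either background was not tested. 7SLRNA went by -0.43, 0.64 and 0.21 in RSeT against primed, RSeT+DT against RSeT and RSeT+DT against primed cells, and 7SK, an inhibitor of the elongation factor P-TEFb, by -0.41, 0.70 and 0.29. BC200, a neuronal and tumour-associated RNA, rose in all 3 (0.92, 0.54 and 1.46). 5S ribosomal RNA did not pass in any (0.05, -0.08 and -0.03). U6 was called higher in RSeT against primed cells (0.19) and lower in RSeT+DT against RSeT cells (-0.24). In the former its groups overlapped, with 100 and 117 CPM in primed and 112 and 112 in RSeT libraries. Calls of these 9 entries are given with TMM factors only.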

How the data were processed

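Total RNA of 6 libraries was made with a stranded kit, per the labels' protocols. The authors deposited raw counts per repeat entry and a CPM table. The deposited CPM equal the counts scaled to the summed counts of the listed entries, within 0.00442 CPM, and listed entries have at least 10 counts in total. The tools named were STAR 2.7.8a, Subread 2.14.2, Trimmomatic 0.39 and featureCounts, with GRCh38/hg38, per the submitters' processing notes. Their roles, the repeat annotation, the strand setting and the handling of reads with many matches were not given in the sources used here. Near-identical entries may share reads.

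Counts were tested in edgeR 4.0.16 (R 4.3.3; quasi-likelihood, TMM, filterByExpr at 10 counts and a total of 15, all 6 libraries, group as the only term), with Benjamini-Hochberg adjustment over 4665 entries. The residual degrees of freedom were 3. The test was checked on simulated data. Each SE follows from the F statistic and its fold change, and CPM are printed as deposited. Members and lists were chosen with earlier results of these data known. Values per library were given for the 6 entries with the highest mean CPM, the 6 largest rises and falls per comparison among passing entries with a mean count of at least 50 and no overlap, all alanine entries and those with a bracketed letter. Other entries named were chosen after their values were seen. Alternatives were RLE factors, library totals, factors from interspersed repeats, no filter, DESeq2 1.42.0, a minimum mean count of 50, limma 3.58.1 on log2 of CPM plus 1 or 0.1, a replicate block, only the groups compared, RSeT replicate 1 thinned to replicate 2, and each library left out. Replicates differed beyond sampling noise over the tRNA entries, where chi-square divided by its degrees of freedom was 6.96 in primed libraries, 2.02 in RSeT libraries and 4.04 in RSeT+DT libraries. Anticodons were located by script as a 7-base loop closed by at least 4 of 5 paired bases.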

Additional observations from a re-analysis of the deposited data

How the results depend on the processing

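The number of tRNA entries called higher in RSeT against primed cells was 28 to 41 with a library left out, and 31 to 39 under the other alternatives. The number lower was 1 in DESeq2 and 1 to 3 with a library left out, lowest without RSeT replicate 2 or primed replicate 1. For RSeT+DT against RSeT cells, interspersed scaling gave 5 higher and 10 lower, and library totals and limma with pseudocounts of 1 and 0.1 gave 26, 26 and 26 lower. With a library left out, 3 to 4 were higher and 12 to 17 lower. For RSeT+DT against primed cells the number higher was 10 with library totals and 11 and 11 in limma, and 13 to 21 with a library left out. The number lower was 10 with library totals, 10 and 10 in limma, 3 in DESeq2, and 2 to 6 with a library left out, lowest without primed replicate 1. The cause was not tested. Of the entries called, 24 of 41 kept their call in every alternative that gave them a value in RSeT against primed, 9 of 19 in RSeT+DT against RSeT and 11 of 23 in RSeT+DT against primed cells.

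The summed tRNA share had log2 ratios of 0.19 (RSeT against primed), 0.04 (RSeT+DT against RSeT) and 0.23 (RSeT+DT against primed), and ranged over 0.18 to 0.20, 0.03 to 0.06 and 0.22 to 0.24 with a library left out. As a share of counts other than simple repeats the first was 0.16 and the second 0.067. As a share of small RNA counts the ratios were 0.73, -0.44 and 0.29, and per count of the other RNA polymerase III entries 0.75, -0.45 and 0.30. Without the (m) entries, an alternative chosen after seeing the data, the latter ratios were -0.57 and -0.36: those entries hold most of the sum. Signs were compared only for called entries and those named by the rule. Over all tested entries, the number with a positive value went from 14 to 24 with interspersed scaling in RSeT+DT against RSeT, and from 41 to 30 with library totals in RSeT+DT against primed cells, so others changed sign too. Among the compared entries, 3 changed sign, none of them passing where it did. In RSeT+DT against RSeT, Glu-GAG_ (-0.14) was 0.076 with interspersed scaling. In RSeT+DT against primed, Ala-GCY_ (0.02) was -0.27 with library totals, -0.00544 with no filter, -0.0597 at a mean count of at least 50, -0.25 and -0.28 in limma, and -0.20 to 0.23 with a library left out. Ala-GCG (-0.22) was -0.45 to 0.12 with a library left out.

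With the replicate number as a block, 38 entries were higher and 3 lower in RSeT against primed, 3 and 16 in RSeT+DT against RSeT, and 18 and 6 in RSeT+DT against primed cells, and no call was lost. Deviations of same-numbered libraries from their group means correlated at 0.05, -0.04 and 0.0015 over 4665 entries. With 2 libraries a group, both replicate numbers give the same value. These values show no common deviation by number, but cannot tell whether same-numbered libraries were handled together. A group left with 1 library was assumed to vary like the others. Depth limits the 14 tested entries with a mean count under 50, of which 6 were called in RSeT against primed, 1 in RSeT+DT against RSeT and 3 in RSeT+DT against primed cells.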
